A study of Drosophila melanogaster with 8 samples.

Results

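Transcripts that separate the heads of hyper-aggressive Bully flies from those of Canton-S flies, whichever of the rearing temperatures was used, are described here. A gene was taken as a member when its 4 Bully values all lay above, or all lay below, its 4 CantonS values, among genes that averaged 1 RPKM or more (reads scaled by gene length and library depth) over the 8 libraries. The deposited table lists 15240 genes, of which 8480 reached that mean, and 1135 of them (13.4%) were members, 598 (7.05%) higher and 537 (6.33%) lower in Bully. The series measured total RNA from whole heads of Drosophila melanogaster, about 90 heads per sample, in socially naive adults aged 6 days. The lines were Canton-S (CantonS) and Bully, a hyper-aggressive line of the Canton-S background, each raised at 19C or at 25C. Each of the 4 groups had 2 libraries, given as independent biological replicates, so each line had 4 libraries. The sources used here do not give the sex of the flies, how the Bully line was made, or how many separate Bully lines there were, so a line difference is one between these 2 stocks.

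Whole heads mix photoreceptors, brain neurons, glia, muscle, hemocytes, cuticle-forming cells and the head fat body, which stores nutrients and secretes immune peptides. Lines kept apart can differ in transcript levels in any of these cells, and cytochrome P450s, glutathione transferases and UDP-glycosyltransferases, which modify and conjugate foreign and internal small molecules, are families known to vary between fly stocks. In such bulk samples fewer cells of a type and less RNA per cell cannot be told apart.

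Effective library sizes were 47.6 to 117.8 M reads, so that 1 read per kb of gene equals 0.00849 to 0.0210 RPKM. Markers of heads were present in every library, with 4950 to 8900 RPKM for ninaE, the main rhodopsin of the eye, and 5.36 to 6.38 RPKM for the glial gene repo. No gene of the testis list reached the mean of 1 RPKM. The male-specific noncoding gene roX1 was at 120.7 to 159.5 RPKM in every library. CantonS 19C b stood apart from the other libraries, with a median-of-ratios factor of 1.10 against 0.947 to 1.00 and with elav, a neuronal gene, at 1.43 RPKM against 3.04 to 4.24 RPKM. CantonS 25C a had the smallest effective library size, 47.6 M reads against 79.9 to 117.8 M, and the lowest factor, 0.947. The letters a and b only name the libraries of a group.

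Each tested gene was fitted with limma on log2(RPKM + 0.5), with rearing temperature as a term and 1 line coefficient from all 8 libraries. A gene that reached a Benjamini-Hochberg adjusted p below 0.05 is said to have risen or fallen in Bully, and differences are Bully minus CantonS on that log2 scale. By this test 476 genes (5.61% of those tested) changed, 239 rose (2.82%) and 237 fell (2.79%). At an unadjusted p below 0.05 there were 1521 genes (17.9%). Separation of the 4 values and the test use the same contrast, so the overlap of both is a description: 454 of the 1135 separated genes (40.0%) also passed, which is 5.35% of those tested, with 232 rises (2.74%) and 222 falls (2.62%). The other 681 separated genes did not pass, and 22 genes passed although their values overlapped. Among the 454 the median difference was 0.73 for rises and -0.79 for falls, against -0.00 over all tested genes. Counted on that scale, with 0.5 RPKM added, 54 rises and 85 falls were at least 2-fold. At least 4-fold were 11 and 18, and at least 8-fold 4 and 4. Ratios of mean RPKM can be larger. The 476 calls dropped to 275 and 243 when the first or the second Bully 19C library (a, b) was left out, and to 301 when Bully 25C a was. Leaving out CantonS 19C a gave 294 calls, leaving out CantonS 25C b gave 282, and the 3 remaining omissions gave 413 to 527. A total of 202 of the 454 genes, 98 rises and 104 falls, passed whichever library was left out, and "held" below means membership of this group.

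**Figure D1:**
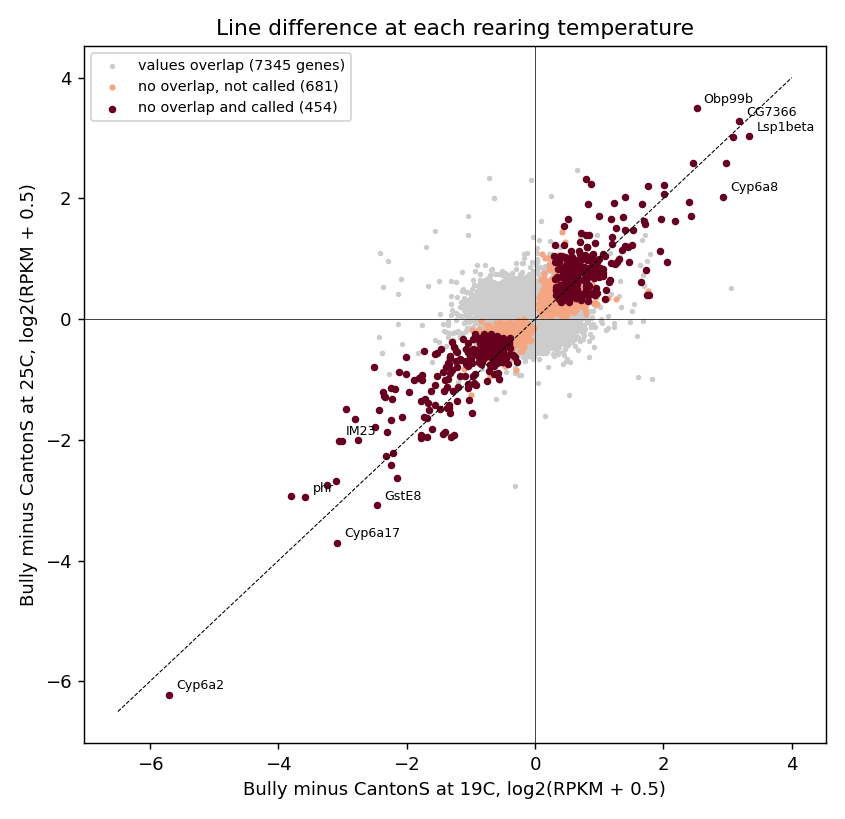
Line difference of each of the 8480 tested genes on the log2(RPKM + 0.5) scale at 19C (horizontal axis) and at 25C (vertical axis). Grey points are genes whose values overlap between the lines, orange points are the 681 separated genes that did not pass the test, and dark points are the 454 that did. The dark points lie along the dashed line of equal differences, with Cyp6a2 at the lower left and CG7366 and Lsp1beta at the upper right. Their choice by separation and by the additive fit favours like differences.

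The largest fall by fitted difference was that of Cyp6a2, a cytochrome P450 known for raised levels in insecticide-resistant flies. It stood at 47.9 and 57.4 RPKM in CantonS 19C and at 63.5 and 64.6 RPKM in CantonS 25C, against 0.562 and 0.464 RPKM in Bully 19C and 0.403 and 0.326 RPKM in Bully 25C. Every CantonS library was therefore far above every Bully library, and the mean was 133-fold higher in CantonS. The difference was -5.97 (SE 0.13, limma adjusted p = 2.41e-08). These values rested on 46 to 108 reads per library in Bully and on 5056 to 11313 in CantonS.

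Cyp6a17, a P450 linked to temperature preference in adult flies, had 18.5 to 29.7 RPKM in CantonS and 1.23 to 2.26 RPKM in Bully. Its difference was -3.39 (SE 0.18, limma adjusted p = 1.05e-05). The gene phr encodes the photolyase that repairs ultraviolet damage in DNA with light. Its libraries gave 18.5, 21.5, 11.2 and 14.2 RPKM in CantonS (19C before 25C) and 1.25, 1.17, 1.10 and 1.31 RPKM in Bully. The Bully values were nearly level across the temperatures, while CantonS was higher at 19C than at 25C, and the lines stayed far apart at both (-3.26, SE 0.15, adjusted p = 3.49e-06). Among the other 18 genes of the DNA repair list that were not phr or Ku80, none passed by limma, and Ku80, a subunit of the end-joining complex, rose by 0.43 (adjusted p = 0.0265, up to 0.107 with single libraries left out). At an unadjusted p below 0.05 that list held 3 of its 20 tested genes, against 17.9% of all tested genes.

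Gapdh2, which encodes a glycolytic dehydrogenase, had 133, 187, 195 and 153 RPKM in CantonS and 31.6, 34.4, 37.4 and 27.4 RPKM in Bully. The 2 lines did not come near each other, with a difference of -2.33 (SE 0.16, adjusted p = 5.18e-05). Its paralog Gapdh1 ranged from 118 to 142 RPKM in Bully and from 113 to 137 RPKM in CantonS, with overlapping values (0.13, adjusted p = 0.690). Gapdh2 was the single call among 13 glycolytic genes tested (7.69%, against 5.61% of all tested genes). How reads shared by such paralogs were assigned is not given in the sources used here.

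Of the 12 largest falls, the rest were Cyp4p2 (-3.00), CG34215 (-3.37), CG7768 (-2.89), the glutathione transferase GstE8 (-2.77), the immune peptide gene IM23 (-2.54), the receptor gene mthl8 (-2.51), CG3397 (-2.39) and CG3939 (-2.39). CG34215 read 14.4, 14.8, 10.3 and 9.58 RPKM in CantonS and 0.589, 0.564, 0.681 and 1.10 RPKM in Bully. For CG7768 the CantonS values were 8.42, 11.4, 6.40 and 5.03 RPKM and those of Bully 0.718, 0.699, 0.436 and 0.481 RPKM. Both genes were lower in all Bully libraries by wide margins. In 3 genes all Bully libraries were at 0.1 RPKM or less. These were mthl8, at 0 to 0.0138 RPKM in Bully and 1.51 to 3.86 RPKM in CantonS, CG3397, at 0 to 0.0844 RPKM against 1.55 to 3.15 RPKM, and CG9757, at 0.0256 to 0.0871 RPKM against 0.957 to 2.79 RPKM. At such levels the added 0.5 RPKM makes the fitted difference smaller than the ratio of the levels. By mean RPKM mthl8 was 362-fold higher in CantonS, more than the 133-fold of Cyp6a2.

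**Figure D2:**
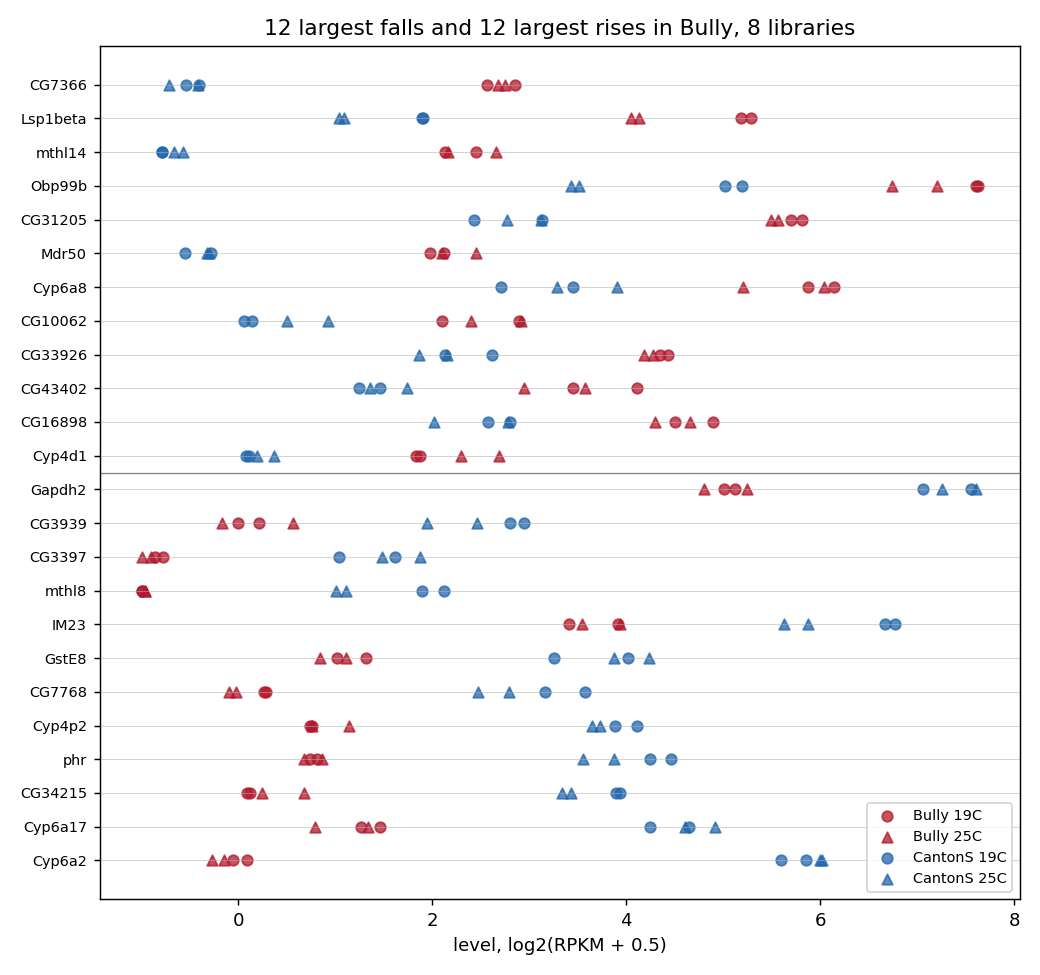
Levels of the 12 largest rises (above the line) and the 12 largest falls (below it) as log2(RPKM + 0.5), 1 point per library, with Bully in red, CantonS in blue, circles for 19C and triangles for 25C. Red and blue points of a gene do not mix in any of the 24 rows, since separation was part of the choice.

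The largest rise by fitted difference was in CG7366. It read 6.72 and 5.42 RPKM in Bully 19C, 6.20 and 5.90 RPKM in Bully 25C, and 0.110 to 0.253 RPKM in CantonS. The CantonS values rested on 7 to 40 reads per library and those of Bully on 580 to 1033. The difference was 3.23 (SE 0.11, limma adjusted p = 4.98e-07). CG7366 lies between CG8005 and CG32364, members that went in opposite directions: CG8005 rose by 0.73 (adjusted p = 0.0312, lost without 5 libraries in turn) and CG32364 fell (adjusted p = 0.00135).

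Lsp1beta encodes a subunit of a larval serum storage protein made by the fat body. Bully had 38.5 and 35.8 RPKM at 19C and 17.0 and 16.1 RPKM at 25C, against 3.21 and 3.23 RPKM and then 1.63 and 1.56 RPKM in CantonS. Both lines were higher at 19C, and the line difference was of nearly the same size at 19C (3.34) and 25C (3.03), with a common value of 3.18 (SE 0.10, adjusted p = 3.73e-07).

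Obp99b, a gene for a carrier of odorants, stood at 197 and 195 RPKM in Bully 19C and 106 and 147 RPKM in Bully 25C, against 36.0, 31.9, 10.3 and 10.9 RPKM in CantonS. All Bully libraries were above all CantonS libraries, and the difference was 3.01 (SE 0.21, adjusted p = 4.85e-05).

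The methuselah-like receptor gene mthl14 read 3.87, 4.96, 5.79 and 3.97 RPKM in Bully and 0.0800, 0.0772, 0.171 and 0.133 RPKM in CantonS, or 17 to 25 reads in each CantonS library. Its mean was 40.3-fold higher in Bully, with a difference of 3.05 (SE 0.13, adjusted p = 2.58e-06). Mdr50, which encodes an ABC transporter of the multidrug resistance type, had 3.45 to 4.96 RPKM in Bully and 0.181 to 0.323 RPKM in CantonS. The rise of Mdr50 was 2.53 (SE 0.11, adjusted p = 3.49e-06). The other large rises were CG31205 (2.77), Cyp6a8 (2.48), CG10062 (2.17), CG33926 (2.12), CG43402 (2.07), CG16898 (2.04) and Cyp4d1 (1.99). All 24 genes with the largest rises and falls passed in each setting that left out a library and in which they were tested.

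Cytochrome P450 genes changed in both directions. Of 61 tested, 13 rose and 8 fell (34.4%, against 5.61% of all tested genes), with a median difference of 0.20 against -0.00 over all tested genes. Of these 21, 14 held, 8 rises and 6 falls. With single libraries left out the rises numbered 8 to 13 and the falls 6 to 8. In addition to Cyp6a2 and Cyp6a17, Cyp4p2 fell from 12.1 to 16.8 RPKM in CantonS to 1.17 to 1.70 RPKM in Bully (-3.00, SE 0.14, adjusted p = 3.49e-06). Cyp4d1 rose, with 3.16, 3.07, 5.95 and 4.40 RPKM in Bully and 0.554 to 0.792 RPKM in CantonS (1.99, SE 0.13, adjusted p = 4.48e-05).

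Some close relatives within the P450 family moved together and others apart. The neighbours Cyp4p2 and Cyp4p1 both fell, Cyp4p1 by 0.91 (adjusted p = 0.00219). Cyp6a17 and Cyp6a23 are neighbours on arm 2R, and while Cyp6a17 was at a few RPKM in Bully, Cyp6a23 was at 10.9 to 16.4 RPKM in Bully and 3.35 to 3.73 RPKM in CantonS (1.81, SE 0.13, adjusted p = 5.18e-05). On either side of this pair lay Cyp6a22 (-0.50, adjusted p = 0.129) and Cyp6a9 (0.26, adjusted p = 0.194), which were separated but did not pass. Cyp6a8 had 58.1, 70.1, 65.1 and 36.3 RPKM in Bully and 6.01, 10.4, 14.5 and 9.25 RPKM in CantonS. The lines were apart even at the lowest Bully library, 25C b (2.48, SE 0.28, adjusted p = 8.75e-04). Cyp6w1 rose by 1.66 (adjusted p = 1.45e-04), from 23.5 to 33.3 RPKM to 81.7 to 106 RPKM. Cyp6g1, whose raised expression is known from DDT-resistant flies, had 106.5 to 154 RPKM in Bully and 64.5 to 91.5 RPKM in CantonS (0.84, adjusted p = 0.0160), and was not among those that held. The pair Cyp12d1-p and Cyp12d1-d, near-identical copies whose reads cannot be told apart with certainty, fell by 1.63 and by 1.59. The most abundant P450 gene, Cyp1, overlapped between the lines at 178 to 191 RPKM in Bully and 166 to 249.6 RPKM in CantonS (-0.10, adjusted p = 0.784). Cyp4p1, Cyp6w1, Cyp6g1, Cyp1 and the Cyp12d1 pair were picked for description after their values were seen.

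**Figure D3:**
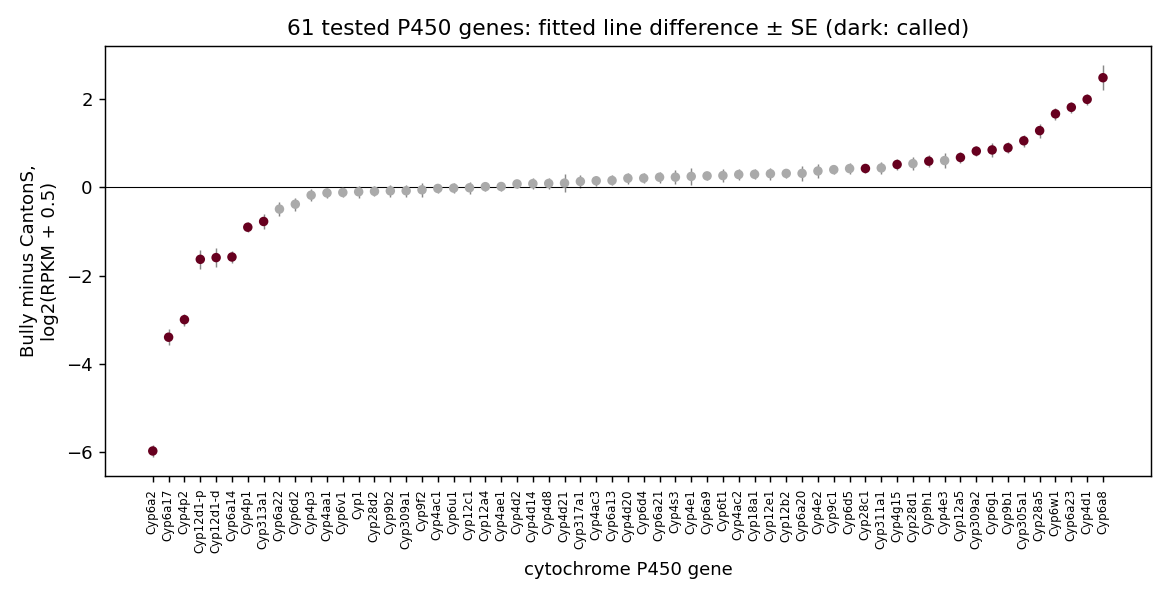
Fitted line difference with its SE for each of the 61 tested cytochrome P450 genes, in order, on the log2(RPKM + 0.5) scale; dark points passed the test. The 8 falls reach -5.97 (Cyp6a2) and the 13 rises 2.48 (Cyp6a8), and genes that did not pass are grey.

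Other detoxification families are smaller. Among 28 glutathione transferases, which attach glutathione to reactive compounds, 2 rose and 3 fell (17.9% called, against 5.61% of all tested genes). GstE8 fell from 9.03, 15.6, 14.2 and 18.3 RPKM in CantonS to 1.52, 1.99, 1.66 and 1.29 RPKM in Bully (-2.77, SE 0.20, adjusted p = 5.82e-05), and no Bully value approached a CantonS value. GstE11 fell by 0.96 (adjusted p = 0.00772). The 2 rises, GstE2 (0.64) and GstD3 (0.67), and the fall of GstO1 (-0.74) were not among those that held, with adjusted p up to 0.0727 for GstE2 and up to 0.0968 for GstO1 when single libraries were left out. Of 9 UDP-glycosyltransferase genes 1 rose, Ugt58Fa (0.91, adjusted p = 0.00208), and 2 fell, Ugt86Dd (-1.66, adjusted p = 1.47e-04) and Ugt86De (-1.06, adjusted p = 4.08e-04), and all 3 held (33.3% called). Counted by current symbol, a grouping made after the values were seen, the family had 17 tested genes with 3 rises and 2 falls, the added rises being CG17322 and CG10178. Ugt86Dd had 6.21 to 8.77 RPKM in CantonS and 1.80 to 2.67 RPKM in Bully. Its neighbours Ugt86Da (0.50, adjusted p = 0.207) and Ugt35b (0.66, adjusted p = 0.0621) were separated in the opposite direction without passing. Of 9 ABC transporter genes 3 rose and none fell (33.3% called), Mdr50 and the eye pigment transporters bw and st. Est-Q was the single call among 14 carboxylesterase genes, a rise (0.88, adjusted p = 0.00548, 7.14% called). A further 5 were separated and higher, so that 42.9% of the list was separated, against 13.4% of all tested genes. Of 7 genes for regulators of the xenobiotic response none passed by limma. At an unadjusted p below 0.05 there were 2, against 17.9% of all tested genes.

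Methuselah-like receptors, a family of G protein-coupled receptors, had calls on both sides. Of 8 tested genes 3 rose, mthl14, mthl4 and mthl3, and 1 fell, mthl8 (50.0% called, against 5.61% of all tested genes). The neighbours mthl4 and mthl3 on arm 2R moved by similar amounts. For mthl4 Bully read 3.06, 3.91, 2.33 and 2.78 RPKM and CantonS 1.70, 1.64, 1.09 and 1.02 RPKM (0.92, SE 0.10, adjusted p = 9.03e-04). For mthl3 the highest CantonS value, 2.12 RPKM at 19C, was just under the lowest Bully value, 2.26 RPKM at 25C (0.81, SE 0.11, adjusted p = 0.00322). Within each temperature the gap between the lines was wider than that. The 3 rises held. The call of mthl8 stood in every setting that left out a library and still tested it; without CantonS 19C a its mean was under 1 RPKM.

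Odorant binding proteins are carriers of small molecules in sensory organs and elsewhere. Their genes gave 3 rises and 5 falls among 25 tested (32.0%, against 5.61% of all tested genes). All 5 falls were in the Obp56 and Obp57 groups. Obp56h had 9.79, 11.3, 6.41 and 7.30 RPKM in Bully and 22.4, 54.4, 23.9 and 32.6 RPKM in CantonS. CantonS 19C b was the highest of the 8 libraries, and the lowest CantonS value was still above each Bully value (-1.82, SE 0.24, adjusted p = 0.00249). Obp57d read 0.915 to 1.28 RPKM in Bully and 2.50 to 7.31 RPKM in CantonS (-1.69, adjusted p = 0.00310). Obp56a (-1.39), Obp56d (-1.09) and Obp57a (-0.73) fell as well, but each lost its call without Bully 25C a or CantonS 25C b. The rises were Obp99b, Obp83cd (0.89, adjusted p = 0.00192) and Obp44a (0.88, adjusted p = 0.0135). Of these 8 genes Obp99b, Obp83cd, Obp56h and Obp57d held.

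Cuticle protein genes fell more often than they rose, 5 against 1 of 22 tested (27.3% called, against 5.61% of all tested genes). All 6 held. Of the falls, 3 were genes of 1 cluster on arm 3L. Lcp65Ag1 had 11.6, 13.9, 13.4 and 12.1 RPKM in Bully and 35.2, 53.9, 34.7 and 45.8 RPKM in CantonS (-1.68, SE 0.16, adjusted p = 3.18e-04). Lcp65Ag2 (-1.48) and Lcp65Ag3 (-1.40) are near-identical copies of it, so these 3 falls may count the same reads. Cpr57A (-1.79, adjusted p = 0.00308) and Cpr49Ag (-0.83, adjusted p = 0.00259) also fell. In the opposite direction Cpr72Ec, at 107 to 197 RPKM in Bully and 26.7 to 71.8 RPKM in CantonS, rose by 1.42 (adjusted p = 0.0105). The median of the 22 genes was 0.15.

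Some transcripts of secreted immune peptides fell in Bully. Among 8 genes named as immune-induced molecules 2 fell and none rose (25.0% called, against 5.61% of all tested genes), and among 12 antimicrobial peptide genes 1 fell and none rose (8.33%). The summed level of the antimicrobial peptide list overlapped between the lines, at 161 to 364 RPKM in Bully and 112 to 297 RPKM in CantonS. IM23, a peptide of the bomanin family that the Toll pathway induces, read 109, 101.5, 48.8 and 58.4 RPKM in CantonS and 10.1, 14.6, 11.1 and 14.8 RPKM in Bully. CantonS was about 2 times higher at 19C than at 25C while Bully stayed level, and the lowest CantonS value was still well above the highest Bully value (-2.54, SE 0.23, adjusted p = 2.22e-04). Def, the defensin gene, had 5.96 to 11.6 RPKM in CantonS and 1.19 to 1.39 RPKM in Bully (-2.29, SE 0.18, adjusted p = 1.16e-04). Both held.

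By the current symbols of the reference annotation 12 tested genes are bomanins, a grouping made after the values were seen, and 5 of them fell: IM23, CG18107, CG5791, CG15065 and IM2. CG18107 was at 182 to 302 RPKM in CantonS and at 56.8 to 67.8 RPKM in Bully (-1.84, adjusted p = 2.22e-04). IM2 read 825 and 810 RPKM in CantonS 19C and 367 and 361 RPKM in CantonS 25C, against 186, 218, 230 and 243 RPKM in Bully. The lines were separated, but CantonS 19C was well above CantonS 25C, so that the difference was -2.02 at 19C and -0.62 at 25C. The call of IM2 (-1.32, adjusted p = 0.0192) was lost when any of the 4 libraries from 19C was left out, with adjusted p up to 0.0737. That of CG5791 (-1.65) was lost without Bully 19C b or CantonS 19C a, with adjusted p up to 0.0689, and that of CG15065 (-1.45) did not hold. IM1, which lies between IM23 and CG18107, was separated and lower (-0.82, adjusted p = 0.0647). Among 32 genes of immune recognition and Toll and Imd signalling 2 fell (6.25%, against 5.61% of all tested genes). These were BG4 (-0.45, adjusted p = 0.0252) and PGRP-SD, and neither held.

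Of 9 hemocyte markers tested 2 rose and none fell, nimC1 and Sr-CI (22.2% called, against 5.61% of all tested genes). The summed level of the list was 52.3 to 74.9 RPKM in Bully and 33.4 to 74.0 RPKM in CantonS. The phagocytosis receptor gene nimC1 had 7.75, 11.8, 14.7 and 9.76 RPKM in Bully, and 1.76, 2.12, 6.70 and 5.33 RPKM in CantonS. CantonS 19C was the lowest group and the line difference was 2.05 at 19C and 0.94 at 25C, and the common difference (SE 0.25, adjusted p = 0.00791) held. Sr-CI (0.73, adjusted p = 0.0309) lost its call without 6 of the 8 libraries in turn. The marker gene Hml was at 4.16 to 6.79 RPKM in Bully and 1.47 to 7.19 RPKM in CantonS, with overlapping values.

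Of 6 storage protein and receptor genes 2 rose, Lsp1beta and Lsp2 (33.3%, against 5.61% of all tested genes). The lists of sugar, lipid and digestive genes gave 1 fall each (11.1%, 7.69% and 16.7% of those tested). Lsp2, a storage protein gene and a fat body marker, had 366 and 398 RPKM in Bully 19C, 159 and 119 RPKM in Bully 25C, 85.2 and 113 RPKM in CantonS 19C and 74.5 and 52.4 RPKM in CantonS 25C. The lowest Bully library, at 25C, was just above the highest CantonS library, at 19C, and within each temperature the lines were well apart (1.54, SE 0.22, adjusted p = 0.00309). The call held but was lost in a fit with no temperature term (adjusted p = 0.0549). Lsp1beta and Lsp2 were also the 2 rises among 8 fat body markers, none of which fell (25.0% called). The summed level of that list, which includes both storage genes, was 745 to 1269 RPKM in Bully and 617 to 900.2 RPKM in CantonS. That sum is therefore no separate measure of fat body content, whose part in the rise of the storage genes was not tested. Tps1, which makes trehalose, the blood sugar of the fly, fell from 169 to 209 RPKM in CantonS to 111 to 124 RPKM in Bully (-0.69, adjusted p = 0.0110, lost without either Bully 19C library at adjusted p up to 0.0597). Mal-B2, a maltase gene, fell by 0.79 (adjusted p = 0.0161, up to 0.0658) and mdy, which encodes an enzyme of fat synthesis, by 0.47 (adjusted p = 0.0459, up to 0.140). The serpin gene Spn55B fell by 0.89 (adjusted p = 0.00767) and held.

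In the eye, rhodopsins of different ommatidia moved apart. Rh5, the blue-sensitive opsin of the pale type of ommatidium, had 108 and 102 RPKM in Bully 19C and 96.2 and 87.4 RPKM in Bully 25C, against 197, 239, 149 and 167.5 RPKM in CantonS. It was lower in every Bully library (-0.91, SE 0.13, adjusted p = 0.00348), and the call held. Rh6 and Rh4, opsins of the yellow type, rose by 0.84 (adjusted p = 0.0158) and by 0.81 (adjusted p = 0.0261). Rh6 had 301 and 290.5 RPKM in Bully 19C, 387 and 406 RPKM in Bully 25C and 177 to 225 RPKM in CantonS, so Bully was higher in every library. Rh3, the partner of Rh5 in the pale type, overlapped between the lines at 210 to 247 RPKM in Bully and 203 to 292 RPKM in CantonS (-0.13, adjusted p = 0.725).

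Of 37 genes of phototransduction 4 rose (Rh6, Rh4, chp and retinin) and 1 fell (13.5% called, against 5.61% of all tested genes). No rise was left by limma when Bully 25C a, CantonS 19C a or CantonS 25C b was omitted (0 in each case). Omitting Bully 19C b or Bully 25C b left 1, Bully 19C a left 2, CantonS 19C b left 4 and CantonS 25C a gave 6. The summed level of 9 photoreceptor markers, chp among them, was 8443 to 12424 RPKM in Bully and 7642 to 10444 RPKM in CantonS. Its part in these rises was not tested. Of 21 eye pigment genes 3 rose (14.3% called). The gene cd, which acts in the synthesis of the brown pigment, had 2.76, 3.20, 3.99 and 2.84 RPKM in Bully and 0.910, 0.713, 1.45 and 0.922 RPKM in CantonS (1.31, SE 0.14, adjusted p = 7.41e-04), and it held. The rises of bw (0.42, adjusted p = 0.0361) and st (0.48, adjusted p = 0.0483) were each lost without 7 of the 8 libraries in turn.

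The list of neuropeptides and their receptors had 44 tested members, of which 1 rose and 4 fell (11.4% called, against 5.61% of all tested genes). The receptor gene sNPF-R, which binds short neuropeptide F, stood at 3.72 to 4.40 RPKM in Bully and 1.99 to 2.38 RPKM in CantonS (0.75, SE 0.10, adjusted p = 0.00185) and held. Pdf, the peptide of clock neurons, had 69.9, 61.1, 85.3 and 89.7 RPKM in Bully and 174, 214, 124 and 138 RPKM in CantonS. CantonS 19C was the highest group, and the difference was -1.55 at 19C and -0.58 at 25C (common value -1.06, adjusted p = 0.0159). The calls of Pdf, Gpb5 (-0.60, adjusted p = 0.0210) and Ast-C (-0.59, adjusted p = 0.0403) were lost without Bully 19C a or Bully 19C b, with adjusted p up to 0.0634, 0.0813 and 0.151 over all libraries left out in turn. Ilp2, an insulin-like peptide gene, fell by 0.84 (adjusted p = 0.0463) and did not hold. Omitting either Bully 19C library left 0 falls in this list by limma. Omitting CantonS 19C a or CantonS 25C b left 1, Bully 25C a or CantonS 19C b left 2, and Bully 25C b or CantonS 25C a gave 4, without Ast-C in either case. Of 11 neuronal markers none passed by limma, with 1 at an unadjusted p below 0.05, against 17.9% of all tested genes.

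Among 28 biogenic amine genes 1 passed (3.57%, against 5.61% of all tested genes), b, whose product makes beta-alanine. It was at 22.5 to 30.3 RPKM in Bully and at 8.24, 7.48, 16.2 and 21.7 RPKM in CantonS (1.13, adjusted p = 0.0152), and the call was lost without CantonS 19C a (adjusted p = 0.0640). Of 18 genes tied to aggression in earlier fly work none passed by limma. At an unadjusted p below 0.05 there were 4, against 17.9% of all tested genes. On this list 2 genes were separated, both lower in Bully (11.1%, against 13.4% of all tested genes). Cyp6a20, a P450 on that list, had 20.9 to 27.7 RPKM in Bully and 15.3 to 25.9 RPKM in CantonS, with overlapping values (0.31, adjusted p = 0.368). The tachykinin gene Tk overlapped too, at 9.93 to 14.7 RPKM in Bully and 14.1 to 25.0 RPKM in CantonS (-0.68, adjusted p = 0.0819).

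Of 24 amino acid transporter genes 3 rose and none fell (12.5% called, against 5.61% of all tested genes). CG7255 had 2.92 to 3.65 RPKM in Bully and 1.21 to 1.41 RPKM in CantonS (1.07, SE 0.10, adjusted p = 3.90e-04). NAAT1, a carrier of neutral amino acids, had 16.96 to 21.01 RPKM in Bully and 9.14 to 11.1 RPKM in CantonS (0.82, SE 0.11, adjusted p = 0.00276). Both held, and CG43693 (0.43, adjusted p = 0.0377) did not. CG13646, singled out by the study from these same samples, lies below the mean of 1 RPKM. Its values were 0.0300 to 0.182 RPKM in Bully and 0.478 to 1.01 RPKM in CantonS, without overlap. In the fit of all 14439 genes with a value it differed by -0.98 (SE 0.08, adjusted p = 7.96e-04). The added 0.5 RPKM makes that difference smaller than the ratio of the levels. CG13646 rested on 4 to 33 reads per library in Bully and 36 to 188 in CantonS. Because it was singled out from these same samples, the p is no independent evidence.

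The machinery of protein synthesis and breakdown was close to or under the background share. Of 80 cytoplasmic ribosomal protein genes 1 fell and none rose (1.25% called), with a median difference of -0.31 and summed levels of 18573 to 21874 RPKM in Bully and 16707 to 33621 RPKM in CantonS. That gene was RpL29, at 94.3, 108, 124 and 118 RPKM in Bully and 296.5, 398, 180 and 293 RPKM in CantonS (-1.35, SE 0.23, adjusted p = 0.00833), and it held. Of 73 mitochondrial ribosomal protein genes 3 fell (4.11% called), led by mRpL33, which had 5.21 to 6.04 RPKM in Bully and 9.64 to 15.6 RPKM in CantonS (-1.07, adjusted p = 8.75e-04). Of 29 proteasome genes Prosalpha1 alone fell (-0.79, adjusted p = 0.0105, 3.45% called). Among 22 heat shock protein genes 2 passed (9.09%, against 5.61% of all tested genes). Hsp67Bc fell from 4.92 to 6.05 RPKM to 1.96 to 2.50 RPKM (-1.16, SE 0.10, adjusted p = 2.27e-04) and held. Hsp27 rose by 1.07 (adjusted p = 0.0460, lost without 6 of the libraries in turn). Of 10 small RNA pathway genes AGO2, which encodes the slicer of the small interfering RNA pathway, rose by 0.69 (adjusted p = 0.0171), but its lines overlapped because CantonS 25C a, at 112 RPKM, was within the Bully 19C values of 111 and 112 RPKM.

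Noncoding genes were also among the members. Of 122 CR-numbered genes 10 rose and 7 fell (13.9%), and 8 of the 17 held. CR43468 had 3.21 to 3.71 RPKM in Bully and 1.55 to 1.73 RPKM in CantonS (0.90, SE 0.09, adjusted p = 4.93e-04), and CR31781 fell by 1.01 (adjusted p = 5.45e-04). Since the sources used here do not state strand, reads of antisense genes such as CR43468 and of the genes they overlap cannot be told apart. Of 51 small structural RNAs 6 fell and none rose (11.8% called, against 5.61% of all tested genes), and none of the 6 held. Only 3 of the 6 were also separated, and 7.84% of the list was, against 13.4% of all tested genes. The falls of snoRNA:U3:54Aa and snoRNA:U3:54Ab have identical values. Some falls rested on few reads, such as 2 to 15 per library in Bully and 10 to 117 in CantonS for snoRNA:Me18S-C1096.

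**Figure D4:**
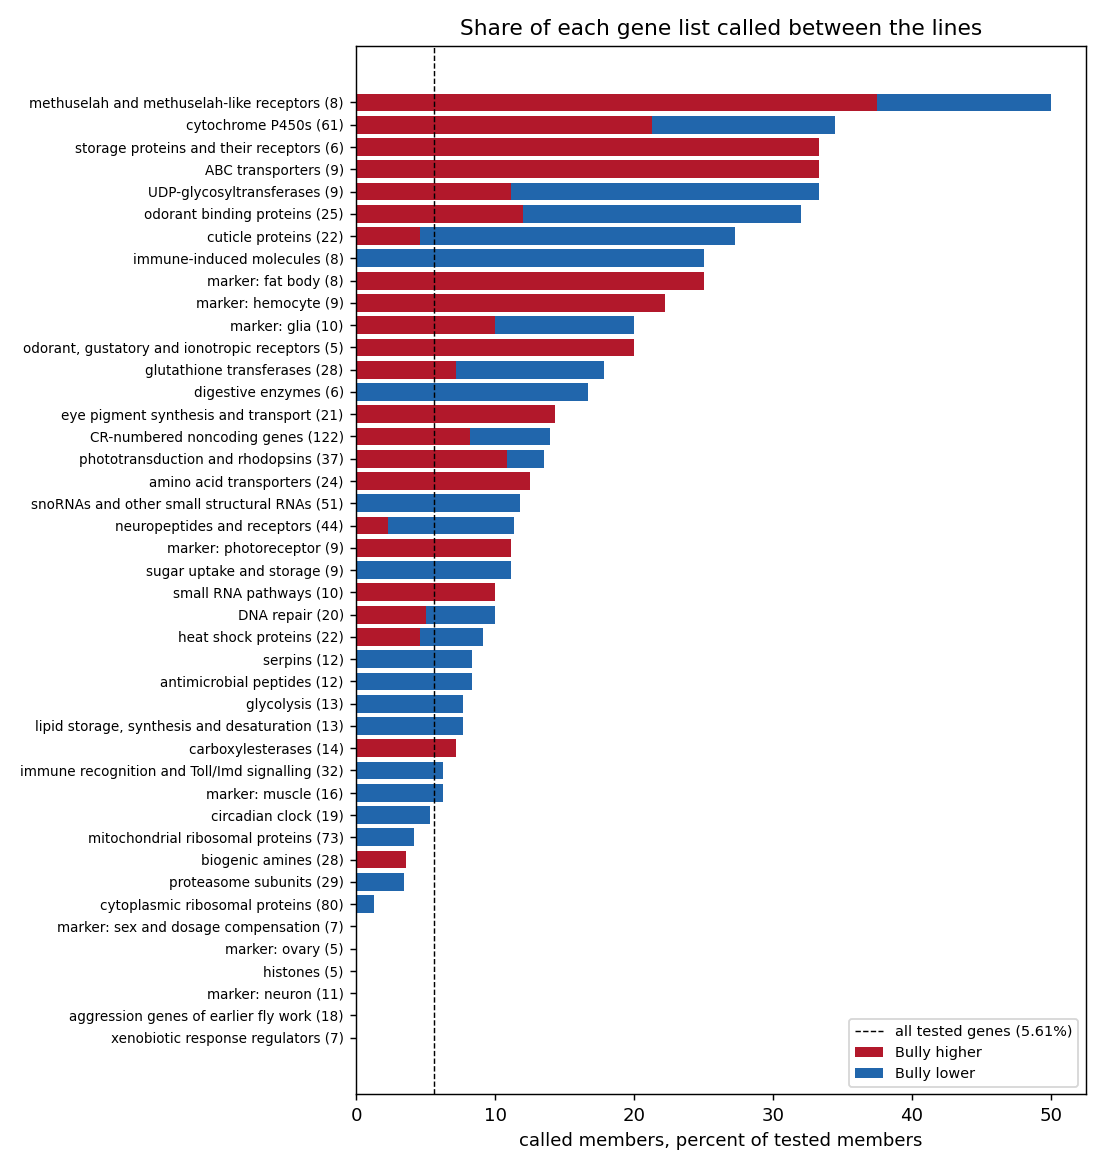
Share of tested members that rose (red) or fell (blue) in Bully, in percent, for gene lists with at least 5 tested members, whose number stands in brackets; the dashed line is the 5.61% of all tested genes. Methuselah-like receptors (8 genes) and cytochrome P450s (61 genes) lead. The neuron markers and the aggression genes have no bar. Nor do the xenobiotic response regulators, histones, ovary markers and sex and dosage compensation genes.

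The 454 genes were unevenly spread over the chromosome arms, taken as gene order in the Drosophila Release 6 annotation. They made up 7.75% of tested genes on 2R, 6.77% on 2L, 5.18% on 3R, 4.17% on 3L, 2.94% on X and 1.22% on chromosome 4. Of the 449 with a place in that order, 118 (26.3%) had an immediate tested neighbour in the group, in 51 runs of up to 4 genes. In 39 of the 51 runs all genes moved in the same direction. Which transcripts share reads with a neighbour was not tested here, and CG43780 and CG43781, for example, have identical values in every library.

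The longest stretch of separated genes on 2R held 6 neighbours, all lower in Bully, which were phr, Prosalpha1, CG18853, CG30382, CG12822 and CG12821. CG18853 fell from 30.5 to 47.8 RPKM to 15.5 to 17.0 RPKM (-1.24, adjusted p = 8.75e-04) and held. CG30382, at -0.79, has almost the same values as Prosalpha1, of which it is a near copy, so their reads may be shared. On arm 2L nimB4 (0.57), nimB5 (0.24), nimC1, Cyp28a5 (1.28) and bgm (0.80) lay side by side and were all higher in Bully, and all but nimB5 passed. The gene bgm encodes an enzyme of long-chain fatty acid activation, and had 48.7 to 51.3 RPKM in Bully against 21.1 to 34.6 RPKM in CantonS.

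Other runs included CG6912 (-1.96), CG3984 (-2.22) and CG3987 (-1.38) on 3R, which all fell and held. CG3984 read 2.18, 1.75, 1.99 and 2.17 RPKM in Bully and 15.2, 7.73, 10.1 and 13.2 RPKM in CantonS, so the Bully values were tight and far below. A run of 6 separated genes on 3R, all lower, had 4 neprilysin-like genes by current symbol. Of these CG14528 (-1.18), CG14526 (-0.73) and CG14527 (-0.65) fell and CG14523 (-0.46, adjusted p = 0.0502) did not pass. The whole family, grouped after the values were seen, had 15 tested genes with 3 falls and 2 rises, CG42370 and CG8358. Its median difference was -0.12, and 5.61% of all tested genes were called. Runs of mixed direction were found as well. CkIIalpha-i3 (-1.57) and CG13895 (-1.18) fell beside a rise of CG13897 (0.74), and CG30148 rose by 1.22 beside falls of Cpr57A and Obp57d.

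**Figure D5:**
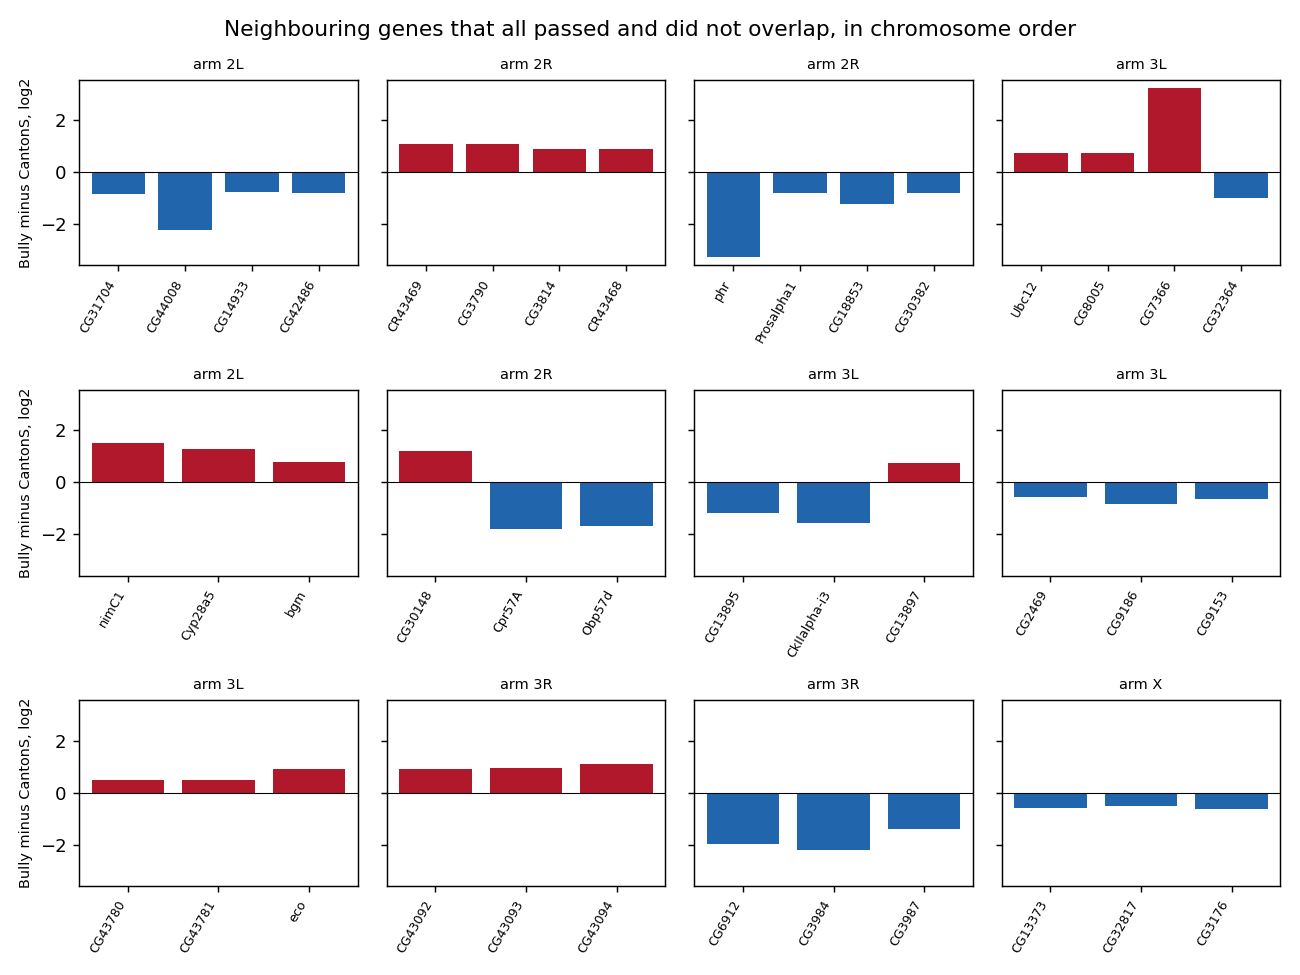
Line difference (log2, Bully minus CantonS) of each gene in the 12 runs of 3 or more neighbouring genes that all passed the test and were separated, 1 panel per run with its chromosome arm, red for rises and blue for falls. In 9 of the 12 panels the bars point the same way; in the others, on 3L and 2R, at least 1 bar is opposed.

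Whether these line differences depend on rearing temperature was asked with the interaction of line and temperature. By limma 0 of all 8480 tested genes passed at an adjusted p below 0.05 (0%), and so 0 of the 1135 separated genes. At an adjusted p below 0.1 there were 24 of the 1135 and 280 of all tested genes (3.3%). At an unadjusted p below 0.05 there were 147 of the 1135 (13.0%), 90 of the 454 (19.8%) and 2018 of all tested genes (23.8%). Without CantonS 19C a 54 of the separated genes passed, without CantonS 25C b 20 and without Bully 25C b 1. Missing the threshold does not show that the differences were equal at 19C and 25C. In 351 of the 454 genes (77.3%) the differences at the 2 temperatures lay within 0.5 of each other on the log2 scale, and in 79 (17.4%) the larger was more than 2 times the smaller. Separation gives both differences the same direction, and the additive fit favours genes whose differences are alike. The shares among the 1135 and the 454 were therefore partly fixed by the choice of genes. Falls were mostly deeper at 19C, since the difference was larger at 25C in 57 of 222 falls (25.7%) and in 123 of 232 rises (53.0%). The 19C difference includes CantonS 19C b, the library with the factor of 1.10. The 25C difference includes CantonS 25C a, the library with the factor of 0.947. The part of either library in this was not tested.

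Among separated genes the smallest interaction p were those of CG5791, IM2, CG44008 and CG1827, all at an adjusted p of 0.0921. CG5791, a bomanin by current symbol, had 330 and 358 RPKM in CantonS 19C, 141 and 149 RPKM in CantonS 25C and 50.3, 71.3, 78.0 and 89.2 RPKM in Bully, so its difference was -2.51 at 19C and -0.79 at 25C. CG44008 differed by -2.80 at 19C and by -1.66 at 25C. CG1827 showed the reverse, with 0.11 at 19C and 1.07 at 25C. Cyp6a2 had -5.71 at 19C and -6.22 at 25C (interaction adjusted p = 0.157), Mdr50 2.47 and 2.59 (0.760), CG7366 3.18 and 3.28 (0.817), and mthl14 3.08 and 3.02 (0.919). With 2 libraries against 2, 5091 genes were separated at 19C and 4385 at 25C, in the same direction at both in 1431 genes and in opposite directions in 1231.

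The rule has a sharp edge at separation, and genes near it differ little. Just inside were Scp2, with a lowest Bully value of 93.9 RPKM and a highest CantonS value of 93.8 RPKM, and nimB5, with 6.41 RPKM and 6.40 RPKM in the same order. For GalNAc-T1 the highest Bully value was 4.059 RPKM and the lowest CantonS value 4.062 RPKM. Just outside were CG31156, where Bully 19C b and CantonS 19C b both read 2.73 RPKM, CG5805, with 5.78 RPKM in both lines, and Xe7, with 11.6 RPKM in both. None of these 6 passed the test. Below the mean of 1 RPKM a further 577 of 5959 genes with a value were separated, 330 higher and 247 lower in Bully, and they are not counted among the members.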

How the data were processed

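RNA from whole heads was sequenced in 8 libraries (2 lines, 2 rearing temperatures, 2 libraries each). The authors deposited RPKM per gene. TopHat2 2.0.4 and edgeR 3.8.6, and the builds dm3 and BDGP5, are named in the submitters' processing notes. The counting rule, strand and any rescaling of library sizes are not given in the sources used here. The 8 columns carry group names and no replicate number, so libraries were not paired. Effective library sizes (47.6 to 117.8 M reads) came from the steps between RPKM values, and whole reads, within 0.02 of a read, were recovered for 5487 of 15240 genes (36.0%), too few for a count test. Reads printed are such recovered reads, and limits from them cover counting error only.

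Genes averaging 1 RPKM or more were tested on log2(RPKM + 0.5) with limma 3.58.1 in R 4.3.3: an additive model of temperature and line (5 residual degrees of freedom, a variance prior of 4.26, mean-variance trend), and for the interaction a model of the 4 group means. All tests were two-sided, and p-values were adjusted over all tested genes (Benjamini-Hochberg). The p-values measure the spread between these libraries, as the series calls them independent biological replicates. In the additive model that spread also includes any interaction of line and temperature. The scripts were tested on simulated data. Gene symbols were matched to RefSeq (Release 6) for 14876 genes (97.6%), for current names, arms and neighbours only. Coordinates are not printed, since the builds differ.

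The members, the 50 gene lists and the naming rule were chosen with earlier results of these data known, so counts for lists are descriptions. Named are the 12 largest rises and 12 largest falls among genes that passed and were separated, for each described list the leading 4 members or fewer by test statistic, CG13646, genes at 0.1 RPKM or less throughout 1 line, members of runs of 3 or more separated neighbours, 3 genes on each side of the separation edge and the 4 separated genes with the smallest interaction p. Others were named after their values were seen. Alternatives were pseudocounts of 0.1 and 1, no filter and a mean of 5 RPKM, rescaling, other variance settings, no temperature term, 4 group means, a 2-fold minimum and each library left out. Removing each library's trend with gene length was added after the data were seen.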

Additional observations from a re-analysis of the deposited data

How the results depend on the processing

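Of the 163 genes with a call that the naming rule picked, 94 passed wherever an alternative tested them. Not all of the 163 are described above, and genes named after their values were seen are not among them unless the rule also picked them. The 2-fold minimum is not part of that count, and no gene picked by the rule changed direction. The 476 calls (239 higher, 237 lower) became 745 (371 and 374) with 4 group means, 143 (55 and 88) with a 2-fold minimum, 269 (138 and 131) at a mean of at least 5 RPKM and 806 (441 and 365) after removal of length trends, an alternative chosen after the data were seen. They were 434 to 640 in the other alternatives that kept all libraries. With 1 library left out there were 243 to 527 (117 to 329 higher, 126 to 288 lower). The 1135 separated genes became 1712 (928 higher) with no filter and 635 (348 and 287) at 5 RPKM. With 1 library left out they were 1282 to 1857 (656 to 1059 higher, 600 to 985 lower), where 3 values against 4 are easier to separate. They were 1857 without CantonS 19C b and 1833 without CantonS 25C a, against 1282 to 1441 for the other libraries. Interaction calls among separated genes were 0 to 54 with 1 library left out (54 without CantonS 19C a, 20 without CantonS 25C b and 1 without Bully 25C b). Fewer genes are tested at a higher mean, and the 4 group means take the interaction out of the residual. Other causes of these shifts were not tested. No paired analysis was possible because the columns carry no replicate number. Genes near 1 RPKM rest on few reads when short, and 2 libraries a group limit what the interaction can show.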

Other observations

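Several genes outside the lists passed, were separated and held with any library left out. They were picked after their values were seen. Arc1, a gene of synaptic plasticity whose product forms capsid-like particles, had 53.3, 59.0, 75.5 and 33.6 RPKM in Bully and 17.2, 17.4, 12.7 and 13.5 RPKM in CantonS (1.79, SE 0.22, limma adjusted p = 0.00135). The lowest Bully library was still well above the highest CantonS library. The nicotinic acetylcholine receptor subunit gene nAcRbeta-21C had 7.46 to 12.9 RPKM in Bully and 2.71 to 5.99 RPKM in CantonS (1.32, SE 0.17, adjusted p = 0.00205). NLaz, a lipocalin gene linked to stress resistance and metabolism, had 2.92 to 3.52 RPKM in Bully and 9.63 to 16.0 RPKM in CantonS (-1.87, SE 0.16, adjusted p = 1.98e-04).

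The receptor tyrosine kinase gene Tie had 9.55 to 10.1 RPKM in Bully and 3.32 to 5.14 RPKM in CantonS (1.15, SE 0.11, adjusted p = 4.11e-04). The splicing factor gene ncm rose by 1.53 (SE 0.10, adjusted p = 4.85e-05), from 3.70 to 4.72 RPKM to 12.02 to 14.1 RPKM. The arginase gene arg fell by 1.45 (SE 0.21, adjusted p = 0.00405), with 1.13 to 1.45 RPKM in Bully and 2.42 to 6.53 RPKM in CantonS. Of the 3 female-enriched head transcripts tested, fit rose by 1.48 (SE 0.27, adjusted p = 0.0117) without separation, since its Bully 25C values of 21.8 and 19.8 RPKM met the 22.1 RPKM of CantonS 19C b.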
